A study of Mus musculus with 16 samples.

Results

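Integrins and other adhesion molecules were followed as a set of 36 genes in subcapsular sinus macrophages (SSMs) and medullary sinus macrophages (MSMs) of the mouse lymph node. The set was drawn up by gene symbol and family, with earlier results of these data known, and holds 16 integrin alpha subunits, 8 integrin beta subunits and 12 other adhesion molecules. Each of the 36 symbols matched 1 of the 55421 gene identifiers in the deposited count table. All 36 passed the filter on low counts, and 30 of them had a mean normalized count over 100, the level that a call required.

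Integrins are paired surface receptors, each built of an alpha and a beta chain, that bind extracellular matrix or proteins on other cells once talin and kindlin switch them on from inside. The beta2 integrins LFA-1, Mac-1 and CD11c/CD18 are the leukocyte integrins and bind ICAMs, complement fragments and fibrinogen, whereas beta1, beta3 and beta5 integrins are mainly receptors for matrix proteins. Sinus macrophages line the lymph-filled sinuses of the node, where they meet lymphatic endothelium, lymphocytes and passing dendritic cells.

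The cells came from C57B/6 male mice that carried MOC2, a mouse oral squamous carcinoma line, for 2 weeks after intradermal implantation of 500000 cells in the flank. Tumor-draining lymph nodes (tdLN) and non-draining nodes (ndLN) of 2 mice were pooled, as 2 tdLN or 6 ndLN. The tumor was placed near the inguinal node, and the ndLN were the inguinal, axillary and brachial nodes of the other side. Tumor drainage and the mix of node sites thus cannot be told apart in the comparisons of tdLN with ndLN. All mice bore a tumor, so that ndLN are not nodes of tumor-free animals, and the ages of the mice are not given in the sources used here. About 10000 cells were sorted per sample. Both subsets were live CD45+ events positive for CD169 and CD11b and negative for Ly6G, B220 and CD3. SSMs were CD11c- with low side scatter and MSMs were CD11c+ with high side scatter. The 16 samples are 8 libraries on 2 lanes each. Both lanes of each library agree within sampling noise and were summed, leaving 2 libraries (pool 1 and pool 2) in each of the 4 groups SSM ndLN, SSM tdLN, MSM ndLN and MSM tdLN. By the study's methods a pool supplied all 4 groups. The replicate number in the labels was taken as the pool, and 1 SSM tdLN library that carries no number was taken as pool 1. Library totals were between 42972328 and 48130352 counts. The p-values below rest on only 2 pools, through the spread left among all 8 libraries after group and pool were fitted.

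Marker genes were checked first, because adhesion molecules differ between leukocyte types. Siglec1, the gene of the gate marker CD169, was at 15.1 and 8.47 CPM in SSM ndLN, 70.04 and 59.2 in SSM tdLN, 0.795 and 1.63 in MSM ndLN and 5.96 and 5.64 in MSM tdLN, where CPM are counts per 1000000 TMM-scaled library counts. It was thus at or under 5.96 CPM in all MSM libraries. The macrophage list (10 genes) summed to 1002 to 1383 CPM in SSM ndLN, 3429 to 4311 in SSM tdLN, 733 to 766 in MSM ndLN and 852 to 1215 in MSM tdLN, and none of its genes was at 0 in a whole group. Markers of other leukocytes were present as well. NK cell markers (7 genes) summed to 1256 to 2024 CPM in SSM libraries against 205 to 286 in MSM libraries. Of these sums Klrk1 alone was 244 to 315 CPM in SSM and 183 to 264 in MSM libraries, where every other gene of the list had 24.45 or less. T and innate-like lymphoid markers (10 genes) summed to 1715 to 2035 in SSM ndLN, 872 to 983 in SSM tdLN and 38.6 to 163 in MSM libraries. Mast cell and basophil markers (10 genes) reached 2131 to 3138 CPM in SSM ndLN and 410 to 845 in SSM tdLN. In MSMs the sum was 312 to 692, of which Kit alone was 269 to 615, while Ms4a2, a chain of the IgE receptor, was at 0 in all MSM libraries.

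Markers of type 1 conventional dendritic cells (5 genes) stood at 77.4 to 117 CPM in SSM and 1703 to 2219 in MSM libraries, and those of type 2 (6 genes) at 262 to 565 and 1602 to 1906. Of the type 2 sum in MSM libraries, Flt3 alone was 672 to 852 CPM and Dpp4 399 to 513. Clec10a was at 99.8 and 86.04 CPM in SSM tdLN against 94.4 and 49.3 in MSM tdLN. Mgl2 was there at 70.3 and 125.6 against 153 and 117 CPM, while Cd209a and Zbtb46 were higher in MSM tdLN. Plasma cell markers (4 genes) summed to 619 to 861 CPM in SSM and 231 to 431 in MSM libraries. In the same order the sums were 60.3 to 83.1 and 84.7 to 123 for plasmacytoid dendritic cells (4). They were 11.9 to 98 and 3.13 to 4.66 for eosinophils (4), and 9.36 to 374 and 1.07 to 2 for neutrophils (5). For B cells (5) they were 9.06 to 13.1 and 8.53 to 36.2, and for Langerhans cells (2) 2.53 to 8.57 and 31 to 142. The plasma cell genes disagreed, with Xbp1 at 222 to 387 CPM, Sdc1 at 195 to 473.5 in SSM and 4.95 to 13.2 in MSM libraries, Jchain at 1.14 to 107.5 and Mzb1 at 0.642 or less. Of the plasmacytoid sum Tcf4 alone was 48.9 to 73.7 CPM. Non-leukocyte lists were low, with 5.54 to 40.9 CPM for blood endothelium (6), 1.58 to 8.85 for lymphatic endothelium (6), 6.13 to 19.1 for fibroblastic reticular cells (5), 1.10 to 5.25 for platelets (8) and 0.367 to 3.90 for epithelium (4). In bulk RNA, fewer cells of a type and less RNA per cell cannot be told apart, and the part that other cell types had in the results below was not tested.

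Promoters are shown for 4 alpha subunit genes, Itgam and Itgax because they are neighbours on chromosome 7 that differed between the subsets in opposite directions, and Itga2 and Itga8 because they had the largest alpha subunit differences in ndLN in each direction. RefSeq promoters of build GRCm38.p6 were at hand for 21 of the 36 members. Each sequence runs 5′ to 3′ on the gene's strand, from 250 bases before the start site through the first 50 bases of the gene. Capitals mark exact matches, on either strand, to GAGGAA (a core bound by PU.1 and other Ets factors), TGTGGT (a RUNX core) and GGGCGG (a GC box), and none of the marked matches overlap. Itgam lies at chr7:128062390-128062689 (plus strand), Itgax at chr7:128129300-128129599 (plus strand), Itga2 at chr13:114932051-114932350 (minus strand) and Itga8 at chr2:12301895-12302194 (minus strand).
Itgam: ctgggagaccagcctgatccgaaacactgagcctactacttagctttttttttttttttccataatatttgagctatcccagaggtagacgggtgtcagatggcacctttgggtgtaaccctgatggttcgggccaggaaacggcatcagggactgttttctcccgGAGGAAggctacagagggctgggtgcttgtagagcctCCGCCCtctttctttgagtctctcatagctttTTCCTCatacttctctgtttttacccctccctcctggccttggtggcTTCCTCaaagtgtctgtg
Itgax: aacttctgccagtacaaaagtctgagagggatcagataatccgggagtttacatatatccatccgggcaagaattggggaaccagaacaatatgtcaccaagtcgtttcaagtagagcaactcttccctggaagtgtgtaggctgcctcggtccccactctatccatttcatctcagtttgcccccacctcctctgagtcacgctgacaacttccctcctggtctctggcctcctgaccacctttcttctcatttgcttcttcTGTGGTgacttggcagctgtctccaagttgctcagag
Itga2: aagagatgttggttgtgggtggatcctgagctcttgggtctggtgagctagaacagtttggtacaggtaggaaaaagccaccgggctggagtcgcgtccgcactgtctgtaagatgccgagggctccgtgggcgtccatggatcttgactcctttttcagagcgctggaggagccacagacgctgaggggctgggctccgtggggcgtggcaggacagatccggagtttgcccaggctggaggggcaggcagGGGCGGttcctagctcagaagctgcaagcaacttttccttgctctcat
Itga8: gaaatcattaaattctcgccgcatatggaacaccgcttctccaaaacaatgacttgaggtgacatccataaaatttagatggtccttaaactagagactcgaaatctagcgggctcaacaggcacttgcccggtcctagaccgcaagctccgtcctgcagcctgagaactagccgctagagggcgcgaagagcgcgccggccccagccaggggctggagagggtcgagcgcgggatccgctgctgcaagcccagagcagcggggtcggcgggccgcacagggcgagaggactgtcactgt
The Itgam window held GAGGAA 3 times, with the first base of the match at -84, -15 and 33 from the start site, and GGGCGG once, at -47. Itgax held TGTGGT at 14, Itga2 held GGGCGG at 3, and the Itga8 window held none of the 3 motifs. Among all 32851 promoters of the same length, 28.3% held GAGGAA, 16.8% TGTGGT and 35.7% GGGCGG. Of the 21 member promoters, 9 held GAGGAA, 3 TGTGGT and 12 GGGCGG. A match is a run of letters and does not show binding.

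Levels were compared between genes as CPM per kb of exon. Itgb2, the beta chain of the leukocyte integrins, was at 277 ± 10.9 CPM per kb in SSM ndLN, 304 ± 16.6 in SSM tdLN, 298 ± 13.3 in MSM ndLN and 288 ± 29.7 in MSM tdLN (mean ± SD, n = 2). It had the highest mean of the beta subunits in every group, although Itgb7 was above it in pool 2 of SSM ndLN. Itgb7 and Itgb1 came next, and these 3 chains made up between 94.7% and 99.6% of the summed beta subunit CPM per kb in every library. Itgb4, Itgb6 and Itgb8 were under the count level for a call, and Itgb6 had 13 counts in all, from 1 library.

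**Figure D1:**
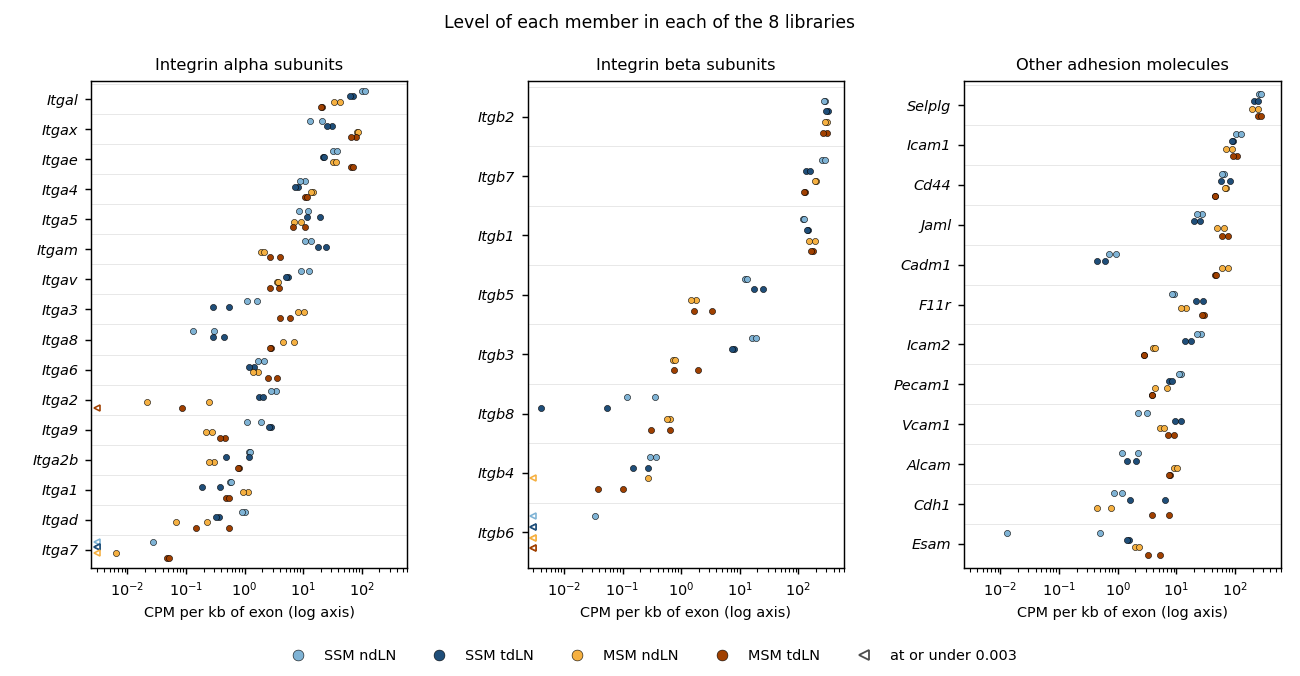
Level of the 36 members in each of the 8 libraries, as CPM per kb of exon on a log axis, with 1 point per library and a colour for each of the 4 groups; open triangles mark values at or under 0.003 CPM per kb. Itgb2, Itgb7, Itgb1 and Selplg lie above 100 CPM per kb in all libraries, whereas the points of Cadm1, Itgb3, Itgb5, Itga8 and Itga2 separate SSMs (blue) from MSMs (orange and brown).

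The alpha chains beside these beta chains differed between the subsets. Itgal, the alpha chain of LFA-1, had the largest share of the alpha subunits in SSMs over full exon lengths, with 47.5% and 52.6% of the summed alpha CPM per kb in SSM ndLN and 37.6% and 39.02% in SSM tdLN. In MSM ndLN it was 20.6% and 16.7% and in MSM tdLN 10.2% and 10.6%. There Itgax was the largest in ndLN (40.3% and 43.3%), and Itgax (38.5% and 33.9%) and Itgae (31.6% and 36.02%) took similar shares in tdLN. Itgax encodes CD11c, by which the subsets were sorted apart, so its part in the mix belongs to the gate. As it enters the sum, it also lowers the shares of the other alpha chains in MSMs. The sum over all alpha subunits was 211 and 214 CPM per kb in SSM ndLN, 189.9 and 163 in SSM tdLN, 205 and 201 in MSM ndLN and 209 and 194 in MSM tdLN, so that the groups were closer in the sum than in the mix.

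The share of Itgam, the alpha chain of Mac-1, was 5.72% in SSM ndLN, 12% in SSM tdLN, 1.00% in MSM ndLN and 1.67% in MSM tdLN as group means. The read-through gene Gm49368 lies over 68.7% of its exon bases on the same strand. With only the bases of no other gene as its length, these shares were 16.1%, 30.2%, 3.10% and 5.11%, beside 44.2%, 30.2%, 18.1% and 9.96% for Itgal. Itgam and Itgal were then level in SSM tdLN, so that the place of Itgam among the alpha subunits, and the lead of Itgal in SSM tdLN, depend on the length used.

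**Figure D2:**
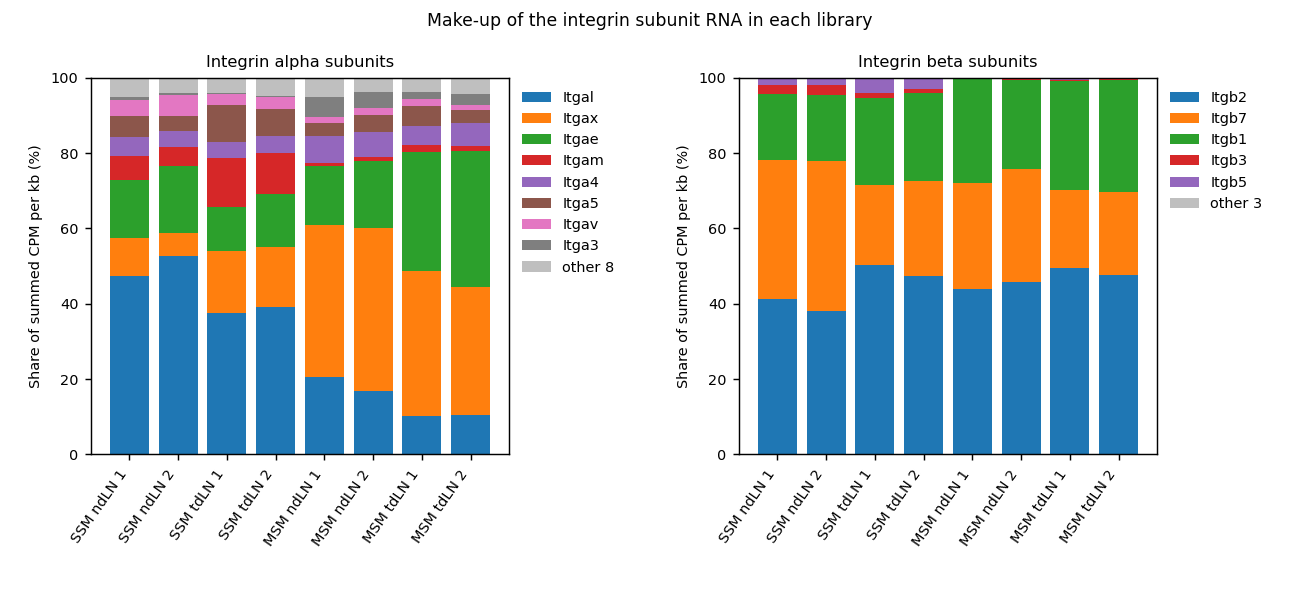
Share of each integrin alpha subunit (left) and beta subunit (right) in the summed CPM per kb of its kind, as 1 stacked bar per library in percent, with the smaller subunits pooled in light grey. Itgax encodes the gate marker CD11c, so its difference between the subsets belongs to the gate. Over full exon lengths Itgal (blue) takes the largest part of the alpha bars in SSMs, level with Itgam in SSM tdLN when only exon bases of no other gene are used, and Itgax (orange) and Itgae (green) in MSMs, while Itgb2, Itgb7 and Itgb1 fill 94.7% or more of every beta bar.

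SSMs and MSMs differed in 15 of the 36 members in ndLN and in 14 in tdLN. Both counts, and the alpha subunit counts below, include Itgax. It encodes the gate marker CD11c, so its call belongs to the gate and is no finding. In ndLN 9 members were higher and 6 lower in SSMs, against a background of 12.1% of all 21085 genes tested (6.01% higher and 6.06% lower). In tdLN 7 members were higher and 7 lower, where 8.69% of all genes were called (5.16% higher and 3.53% lower). The members called were 41.7% and 38.9% of the set. All genes called were among the 9996 over the count cut-off, which 30 of the 36 members passed. The shares of 12.1% and 8.69% thus understate the background for the members. The median log2 fold change over the 36 members was 0.30 in ndLN and -0.11 in tdLN, beside 0.09 and 0.02 over all genes tested. Over the 30 members with enough counts it was 0.17 and -0.15, beside -0.059 and 0.0071 over all genes with enough counts. By class, 8 of 16 alpha subunits and 2 of 8 beta subunits were called in each node, and 5 of 12 other molecules in ndLN and 4 in tdLN. The ndLN and tdLN comparisons have no library in common, but by the study's methods the same pools of mice supplied both.

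Among the alpha chains of beta2 integrins, Itgal and Itgam were higher in SSMs and Itgax was lower, while Itgb2 itself was not called. Itgal was at 658 and 739.8 CPM in SSM ndLN, 469 and 417 in SSM tdLN, 277 and 221 in MSM ndLN and 140.3 and 135 in MSM tdLN. Every SSM library was above every MSM library, and the SSM level was 2.82-fold higher in ndLN (log2 fold change ± SE 1.50 ± 0.15, edgeR adjusted p = 0.000347) and 3.22-fold higher in tdLN (1.69 ± 0.15, edgeR adjusted p = 0.000322). Itgal RNA is also plentiful in lymphocytes and NK cells, whose marker lists were higher in SSMs. Itgam, part of the gate in both subsets as CD11b, was at 67.5 and 54.6 CPM in SSM ndLN, 124 and 90.2 in SSM tdLN, 9.64 and 10.7 in MSM ndLN and 20.4 and 13.7 in MSM tdLN. That was 5.90-fold higher in SSMs in ndLN (log2 2.56 ± 0.21, edgeR adjusted p = 0.000167) and 6.30-fold higher in tdLN (2.66 ± 0.20, edgeR adjusted p = 0.000195), again without overlap. The overlapping Gm49368 had 0.390 CPM or less in every library. Neutrophil and eosinophil marker sums were also higher in SSM libraries, and their part in the Itgam values was not tested.

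Itgax encodes CD11c, by which the subsets were sorted apart, so its difference belongs to the gate and is no finding. It was at 100.4 and 63.6 CPM in SSM ndLN, 149 and 125 in SSM tdLN, 396 and 418 in MSM ndLN and 385 and 316 in MSM tdLN, and thus 5.08-fold lower in SSMs in ndLN and 2.55-fold lower in tdLN. Itgad, the alpha chain of the other beta2 integrin, had 4.62 CPM or less and was under the count level for a call. For comparison, Itgb2 was at 868 and 821 CPM in SSM ndLN against 939 and 881 in MSM ndLN (log2 -0.11 ± 0.10), and at 963 and 891 in SSM tdLN against 942 and 814 in MSM tdLN (log2 0.08 ± 0.10).

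Receptors of collagen and laminin went both ways. Itga2, the alpha chain of a collagen receptor that also marks NK cells and basophils as CD49b, was at 24.9 and 20.03 CPM in SSM ndLN, 12.4 and 14.9 in SSM tdLN, 0.154 and 1.76 in MSM ndLN and 0 and 0.616 in MSM tdLN. The fitted log2 difference was 4.50 ± 0.58 (edgeR adjusted p = 0.00113) in ndLN and 5.40 ± 0.75 (edgeR adjusted p = 0.00226) in tdLN. The sizes rest on single MSM libraries. The ndLN value was 3.70 without pool 1 of MSM ndLN and 7.14 without pool 2. The tdLN value was 4.53 without pool 1 of MSM tdLN, and without pool 2 the lone MSM tdLN library has no count, so that its fitted 12.20 depends on the prior count and is not a size. Ncr1, an activating receptor of NK cells, was high in the same libraries, at 97.6 to 144 CPM in SSM and 1.10 to 2.62 in MSM libraries. Itga3, a laminin receptor chain, ran the other way, at 9.32 and 6.31 CPM in SSM ndLN, 3.12 and 1.65 in SSM tdLN, 60.2 and 46.5 in MSM ndLN and 23.2 and 33.6 in MSM tdLN. It was 6.81-fold lower in SSMs in ndLN (log2 -2.77 ± 0.31, edgeR adjusted p = 0.000654) and 12.1-fold lower in tdLN (-3.60 ± 0.38, edgeR adjusted p = 0.000721), and no SSM library reached an MSM library.

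Itga1, another collagen receptor chain, and Itga6, a laminin receptor chain, were not called in either node. Itga1 was at 3.45 to 10.7 CPM in SSM libraries and 9.14 to 21.4 in MSM libraries. The log2 difference of Itga6 was 0.31 ± 0.27 in ndLN and -1.22 ± 0.27 in tdLN. Itga7, a laminin receptor chain of muscle, had 49 counts in all libraries together and gave no readable difference.

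Integrins that bind fibronectin, nephronectin, tenascin or VCAM1 split as well. Itga8, which pairs with beta1 and binds nephronectin, was at 2.21 and 0.970 CPM in SSM ndLN, 3.32 and 2.13 in SSM tdLN, 51.99 and 33.4 in MSM ndLN and 20.99 and 19.8 in MSM tdLN. SSMs were 26.6-fold lower in ndLN (log2 -4.73 ± 0.30, edgeR adjusted p = 5.57e-05) and 7.64-fold lower in tdLN (-2.93 ± 0.30, edgeR adjusted p = 0.000601), with all SSM libraries far below all MSM libraries. Npnt, the gene of nephronectin, had the opposite pattern, at 35.6 and 41.2 CPM in SSM ndLN, 11.7 and 8.41 in SSM tdLN and 0.936 or less in the MSM libraries. It was 42.3-fold higher in SSMs in ndLN (log2 5.40 ± 0.35, edgeR adjusted p = 7.34e-05). Itga9, whose integrin binds tenascin and VCAM1, was at 14.5 and 8.39 CPM in SSM ndLN, 21.7 and 19.7 in SSM tdLN, 1.72 and 2.18 in MSM ndLN and 3.56 and 2.91 in MSM tdLN. It was 5.70-fold higher in SSMs in ndLN (log2 2.51 ± 0.35, edgeR adjusted p = 0.00174) and 6.43-fold higher in tdLN (2.69 ± 0.30, edgeR adjusted p = 0.000955).

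Itga4 and Itga5, the alpha chains of the classical VCAM1 and fibronectin receptors, were present in all libraries and not called. Itga4 was at 102 to 151 CPM across SSM and 149 to 204 across MSM libraries (log2 -0.52 ± 0.15 in ndLN and -0.56 ± 0.15 in tdLN). Itga5 was at 41.8 to 94.1 CPM across SSM and 32.5 to 53.8 across MSM libraries. Their partner Itgb1 was at 493 and 503 CPM in SSM ndLN, 592 and 584 in SSM tdLN, 785 and 609.5 in MSM ndLN and 731 and 681 in MSM tdLN. Its SSM libraries lay below the MSM libraries, by less than a call required (log2 -0.48 ± 0.13, edgeR adjusted p = 0.0334 in ndLN and -0.26 ± 0.13, edgeR adjusted p = 0.243 in tdLN).

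The chains of the vitronectin receptors were higher in SSMs. Itgb3 was at 95.1 and 111 CPM in SSM ndLN, 46.6 and 44.1 in SSM tdLN, 4.28 and 4.68 in MSM ndLN and 11.7 and 4.38 in MSM tdLN. The difference was 23.03-fold in ndLN (log2 4.53 ± 0.38, edgeR adjusted p = 0.00018) and 5.79-fold in tdLN (2.53 ± 0.35, edgeR adjusted p = 0.00252). The tdLN log2 value of Itgb3 was 3.42 without pool 1 of MSM tdLN and 1.92 without pool 2. Itgb5 was at 43.2 and 47.7 CPM in SSM ndLN, 90.2 and 62.4 in SSM tdLN, 6.31 and 5.28 in MSM ndLN and 11.97 and 5.94 in MSM tdLN. SSMs were 7.96-fold higher in ndLN (log2 2.99 ± 0.30, edgeR adjusted p = 0.000362) and 8.62-fold higher in tdLN (3.11 ± 0.28, edgeR adjusted p = 0.00036), and neither gene overlapped between the subsets.

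Itgav, the alpha chain that both share, was at 99.2 and 133 CPM in SSM ndLN and 39.2 and 40.5 in MSM ndLN, 2.91-fold higher in SSMs (log2 1.54 ± 0.22, edgeR adjusted p = 0.00208). In tdLN it was at 59.3 and 54.03 against 41.2 and 29.6 CPM and was not called (log2 0.68 ± 0.22, edgeR adjusted p = 0.0852). The other alpha partner of beta3, Itga2b, is the platelet and megakaryocyte chain and had 6.67 CPM or less. Itgb8, a beta chain that activates latent TGF-beta together with alphaV, was at 0.0459 to 3.97 CPM across SSM and 3.37 to 7.18 across MSM libraries and was under the count level for a call.

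Itgae and Itgb7 pair as CD103, a receptor for E-cadherin, and Itgb7 also pairs with Itga4. Itgae had 148 and 174 CPM in SSM ndLN and 146 and 164 in MSM ndLN, overlapping groups with a log2 difference of 0.05 ± 0.13. In tdLN it was at 101 and 104 CPM in SSMs and 301 and 321 in MSMs, 3.02-fold lower in SSMs (log2 -1.60 ± 0.13, edgeR adjusted p = 0.000227). Itgb7 was not called between the subsets (log2 0.46 ± 0.12 in ndLN and 0.19 ± 0.12 in tdLN).

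Cadm1 had the largest difference of the 30 members with enough counts, in both nodes. This immunoglobulin superfamily molecule, which marks type 1 dendritic cells, was at 7.34 and 9.84 CPM in SSM ndLN, 4.66 and 6.40 in SSM tdLN, 796 and 624 in MSM ndLN and 472 and 504 in MSM tdLN. SSMs were 83.2-fold lower in ndLN (log2 -6.38 ± 0.24, edgeR adjusted p = 1.44e-05) and 88.3-fold lower in tdLN (-6.46 ± 0.25, edgeR adjusted p = 2.71e-05). Xcr1, a chemokine receptor of type 1 dendritic cells, was high in the same libraries, at 14.2 to 33.6 CPM in SSM and 630.4 to 752 in MSM libraries. Alcam, the CD6 ligand, had 8.51 to 15.7 CPM across SSM and 53.6 to 73.8 across MSM libraries and was 5.91-fold lower in SSMs in ndLN (edgeR adjusted p = 0.000443) and 4.46-fold lower in tdLN (edgeR adjusted p = 0.00139). Jaml, a junctional adhesion molecule of leukocytes, had 63.3 to 85.3 CPM across SSM and 157 to 238 across MSM libraries, 2.31-fold lower in SSMs in ndLN (edgeR adjusted p = 0.00506) and 3.04-fold lower in tdLN (edgeR adjusted p = 0.002). The opposite-strand gene Gm10684 overlaps 12.8% of the Jaml exon bases, and their reads cannot be told apart.

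Icam2, an LFA-1 ligand of leukocytes, platelets and endothelium, was higher in SSMs in both nodes. It was at 49.4 and 43.5 CPM in SSM ndLN, 26.4 and 34.5 in SSM tdLN, 7.54 and 8.16 in MSM ndLN and 5.45 and 5.44 in MSM tdLN, a difference of 5.93-fold in ndLN (log2 2.57 ± 0.22, edgeR adjusted p = 0.000198) and 5.58-fold in tdLN (2.48 ± 0.23, edgeR adjusted p = 0.000464). Pecam1 (CD31) was 2.09-fold higher in SSMs in ndLN, at 74.5 and 69.02 against 26.97 and 42.5 CPM (log2 1.06 ± 0.21, edgeR adjusted p = 0.00959). In tdLN it missed the threshold at a similar size (1.03 ± 0.22, edgeR adjusted p = 0.0162). Of the blood endothelial list, Kdr was at 2.71 to 38.97 CPM across SSM and 3.39 to 22.4 across MSM libraries, Plvap at 0.423 to 2.43 and 1.70 to 12.9, and Cdh5 at 0.713 or less in all.

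The other 7 molecules were not called between the subsets in either node. Selplg, the P-selectin ligand, had 828 to 1192 CPM over all libraries, Icam1, the main LFA-1 ligand, 312 to 557, and Cd44, the hyaluronan receptor, 313 to 556. Vcam1, a ligand of alpha4 integrins, had a log2 difference of -1.10 ± 0.25 (edgeR adjusted p = 0.0156) in ndLN and 0.40 ± 0.23 (edgeR adjusted p = 0.323) in tdLN. F11r (JAM-A) had one of -0.59 ± 0.17 (edgeR adjusted p = 0.0396) in ndLN. Esam, an endothelial and dendritic cell junction molecule, was at 0.0368 and 1.46 CPM in SSM ndLN against 5.69 and 6.60 in MSM ndLN (edgeR adjusted p = 0.0106). Cdh1 (E-cadherin), the ligand of CD103, was at 3.97 and 5.46 against 3.51 and 2.01 CPM there.

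**Figure D3:**
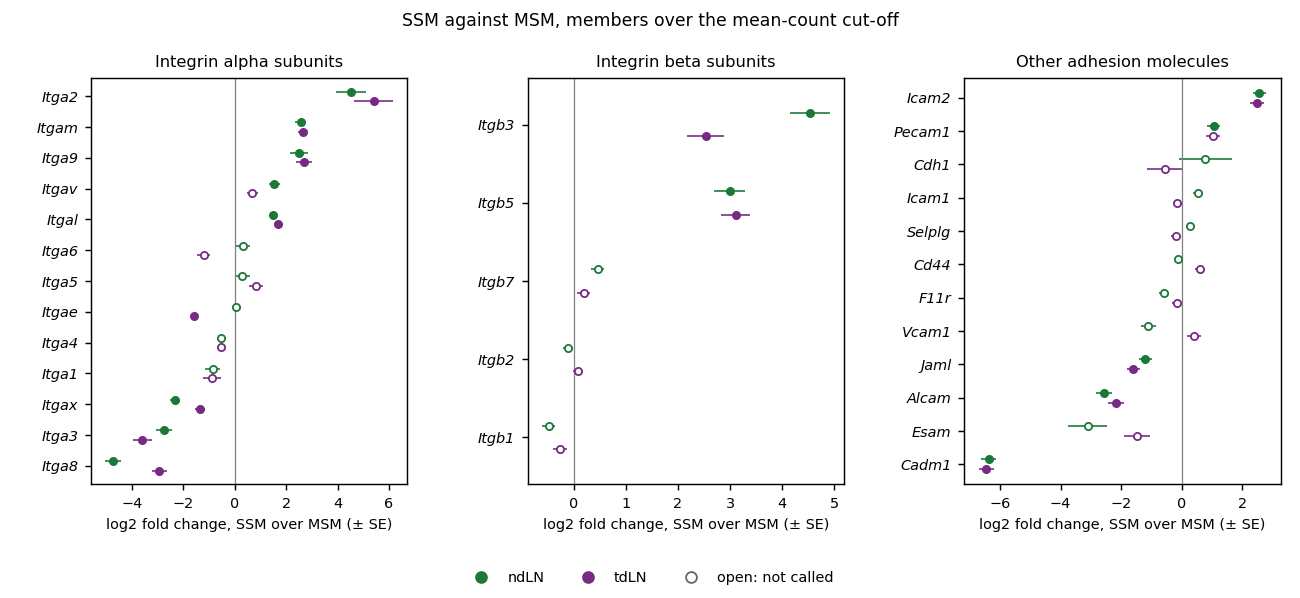
Log2 fold change of SSM over MSM (x axis, ± SE) in ndLN (green) and tdLN (purple) for the 30 members with a mean normalized count over 100, with filled points for called members. Itga2, Itgam, Itga9, Itgal, Itgb3, Itgb5 and Icam2 are filled to the right of 0 in both nodes, Itga8, Itga3, Itgax, Cadm1, Alcam and Jaml to the left, and Itgae is filled in tdLN alone.

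The number of calls depended on single libraries. Without pool 1 of MSM ndLN 8 members were called in ndLN. In tdLN 7 were called without pool 2 of MSM tdLN, 7 without pool 1 of SSM tdLN and 6 without pool 2 of SSM tdLN. In ndLN, Itga8, Itgal, Itgam, Itgax, Itgb3, Icam2, Alcam and Cadm1 were called whichever of the 8 libraries was left out, and in tdLN Itgae, Itgal, Itgam, Itgb5 and Cadm1 were. Of these, the call of Itgax belongs to the gate. Pecam1 lost its ndLN call without any 1 of the 8 libraries (highest edgeR adjusted p = 0.0618), and Jaml without any pool of MSM ndLN, SSM ndLN or SSM tdLN (0.0539). Itga2 and Itgb5 lost theirs without pool 1 of MSM ndLN (edgeR adjusted p = 0.0154 and 0.0101), and Itga3 without that library or pool 2 of SSM ndLN (up to 0.0139). Itga9 lost it without either MSM ndLN pool or pool 1 of SSM ndLN (up to 0.0248), and Itgav without either MSM ndLN pool or pool 2 of SSM ndLN (up to 0.0303). In tdLN, Itga2, Itga9, Itgax and Alcam lost the call without any of the 4 tdLN libraries (edgeR adjusted p up to 0.0259, 0.0195, 0.0383 and 0.0286). Itgb3 and Jaml lost theirs without pool 2 of MSM tdLN or either SSM tdLN pool (up to 0.0284 and 0.0363), Itga8 without either SSM tdLN pool (up to 0.0138), Itga3 without pool 2 of SSM tdLN (0.015) and Icam2 without pool 2 of MSM tdLN (0.0117). All of these kept their direction.

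SSMs of tdLN differed from SSMs of ndLN in 3 members, Vcam1 and F11r upwards and Itgb7 downwards, which is 8.33% of the set beside 3.04% of all genes tested (1.99% higher and 1.05% lower). The 640 genes called were again all among the 9996 over the count cut-off, so that 3.04% understates the background for the members. Vcam1 had 19.5 and 27.99 CPM in SSM ndLN and 105 and 83.7 in SSM tdLN, 3.99-fold higher in tdLN (log2 2.00 ± 0.25, edgeR adjusted p = 0.00401). F11r, a tight junction molecule and LFA-1 ligand, had 23.9 and 22.7 CPM in SSM ndLN and 76.7 and 57.98 in SSM tdLN, 2.87-fold higher (log2 1.52 ± 0.16, edgeR adjusted p = 0.0026). Itgb7 had 705 and 776 CPM in SSM ndLN and 368 and 431 in SSM tdLN, 1.86-fold lower (log2 -0.89 ± 0.12, edgeR adjusted p = 0.00631). None of the 3 overlapped between the nodes. With 2 libraries per group such separation largely follows from a small p, and its share over all genes was not counted. It is therefore no further support, here or in the like remarks above and below. Several marker lists moved in the same libraries. From SSM ndLN to SSM tdLN the macrophage sum went from 1002 to 1383 to 3429 to 4311 CPM (7 of 10 genes called higher), that of type 2 dendritic cells from 262 to 322 to 459 to 565 (3 of 6 higher) and that of blood endothelium from 5.54 to 10.3 to 30.7 to 40.9 (1 of 6 higher). The endothelial rise was that of Kdr alone, at 9.49 and 2.71 CPM in SSM ndLN and 38.97 and 29.5 in SSM tdLN. Every other gene of that list had 2.43 CPM or less in the SSM libraries. The T and innate-like lymphoid sum went from 1715 to 2035 to 872 to 983 CPM (2 of 10 genes called lower) and the mast cell and basophil sum from 2131 to 3138 to 410 to 845 (2 of 10 lower and 1 higher). Their part in these 3 results was not tested.

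These 3 calls rest on the spread shared over all 8 libraries. A fit of the 4 SSM libraries alone called 0 members and 0 of all genes, and Vcam1 and Itgb7 lost their calls without any 1 of the 8 libraries (highest edgeR adjusted p = 0.0637 and 0.126). F11r lost it without any library but those of MSM ndLN (highest edgeR adjusted p = 0.0561), so that 1 member was called without either of those and 0 without each of the other 6.

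No alpha subunit was called between SSMs of the 2 nodes by edgeR's quasi-likelihood test, although 10 of the 16 had an unadjusted p under 0.05 and DESeq2 called 6 of them, among 10 of the 36 members. The alpha subunits had a median log2 fold change of -0.60 and the whole set of -0.45, beside -0.035 over all genes. These medians include members with few counts, such as Itga7 and, in the whole set, Itgb6. The 30 members with enough counts had one of -0.18, beside 0.047 over all genes with enough counts. Itgal (log2 -0.66 ± 0.14, edgeR adjusted p = 0.0293), Itgae (-0.64 ± 0.13, edgeR adjusted p = 0.0212) and Itgav (-1.03 ± 0.22, edgeR adjusted p = 0.0259) each had lower values in both tdLN libraries than in both ndLN libraries. Itgam (0.80 ± 0.18, edgeR adjusted p = 0.0367) and Itgax (0.76 ± 0.18, edgeR adjusted p = 0.0407) each had higher values. Itgb3 (-1.20 ± 0.30, edgeR adjusted p = 0.0499) and Itga3 (-1.71 ± 0.42, edgeR adjusted p = 0.0451) were also lower without overlap. Esam had 0.0368 and 1.46 CPM in SSM ndLN and 4.40 and 4.20 in SSM tdLN (edgeR adjusted p = 0.0531).

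In MSMs edgeR's quasi-likelihood test called 0 members between tdLN and ndLN, where 0.0237% of all genes, 5 in number, were called. At an unadjusted p under 0.05 there were 13 members, and DESeq2 called 5, with Itgae, F11r and Cdh1 higher and Itgal and Itgb7 lower in tdLN. The median log2 fold change was -0.0038 over the members and 0.0093 over all genes. Itgae had the smallest edgeR adjusted p, with 146 and 164 CPM in MSM ndLN and 301 and 321 in MSM tdLN (log2 1.01 ± 0.13, edgeR adjusted p = 0.0297). F11r was at 38.3 and 32.1 against 78.2 and 72.1 CPM (1.10 ± 0.16, edgeR adjusted p = 0.0438), so that its tdLN libraries lay above its ndLN libraries in both subsets.

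Cdh1 was at 3.51 and 2.01 CPM in MSM ndLN and 34.5 and 17.4 in MSM tdLN, a large difference with a wide error (log2 3.28 ± 0.75, edgeR adjusted p = 0.152). In SSMs it was at 3.97 and 5.46 against 7.47 and 29.9 CPM (log2 1.94 ± 0.68, edgeR adjusted p = 0.134), with 1 tdLN library far above the other. Langerhans cells also express E-cadherin, and of their markers Cd207 was at 126 and 68.9 CPM in MSM ndLN and 21.9 and 17.4 in MSM tdLN, and Epcam at 15.9 and 15.4 and 14.7 and 13.6. Their part in the Cdh1 values was not tested.

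**Figure D4:**
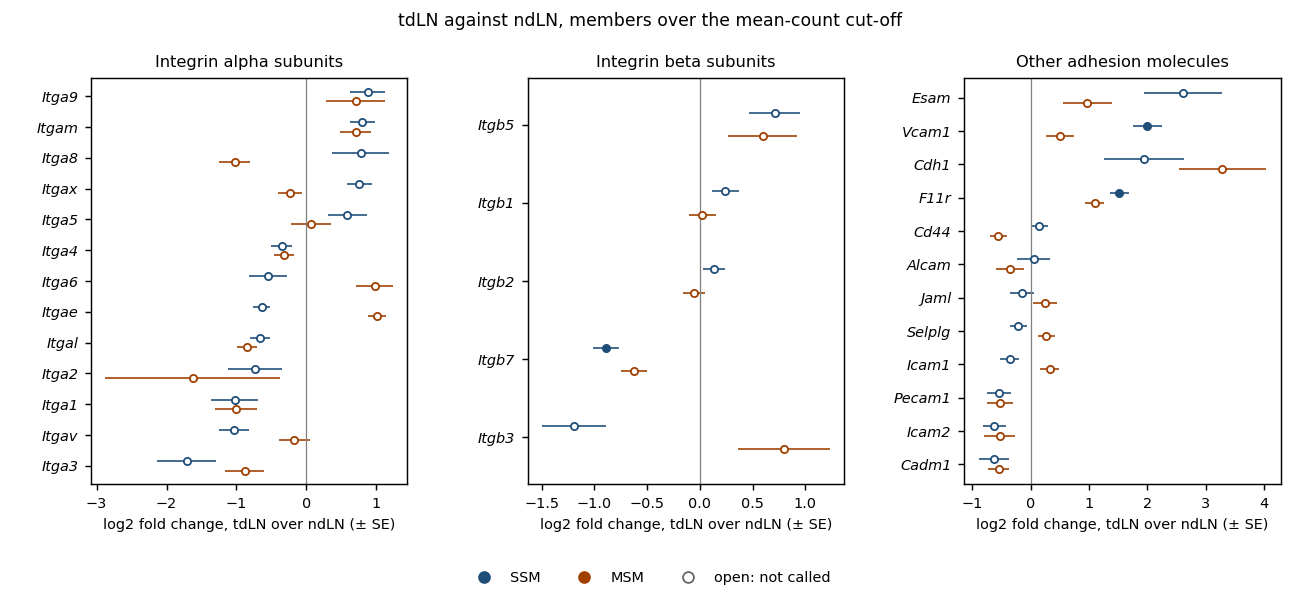
Log2 fold change of tdLN over ndLN (x axis, ± SE) in SSMs (blue) and MSMs (brown) for the 30 members with a mean normalized count over 100, with filled points for called members. Vcam1, F11r and Itgb7 in SSMs are the 3 filled points, and for Itgae, Itga6, Itga8 and Itgb3 the points of the subsets lie on opposite sides of 0.

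Whether the tdLN effect differed between SSMs and MSMs was tested as an interaction. EdgeR called 0 members, where 0.0379% of all genes, 8 in number, were called, while 12 members had an unadjusted p under 0.05 and DESeq2 called 5 (Itga6, Itga8, Itgae, Itgb3 and Vcam1). Itgae had a log2 change of -0.64 ± 0.13 in SSMs and 1.01 ± 0.13 in MSMs, a difference of -1.65 ± 0.18 (edgeR adjusted p = 0.0176). For Vcam1 the changes were 2.00 ± 0.25 and 0.50 ± 0.24 (difference 1.50 ± 0.34, edgeR adjusted p = 0.107), so that its call in SSMs does not show an effect particular to them. For Itgb3 they were -1.20 ± 0.30 and 0.80 ± 0.43 (difference -1.99 ± 0.53, edgeR adjusted p = 0.155), and for Itga8 0.77 ± 0.41 and -1.03 ± 0.22 (difference 1.80 ± 0.47, edgeR adjusted p = 0.151). The median over the members was -0.0311, beside -0.0141 over all genes.

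**Figure D5:**
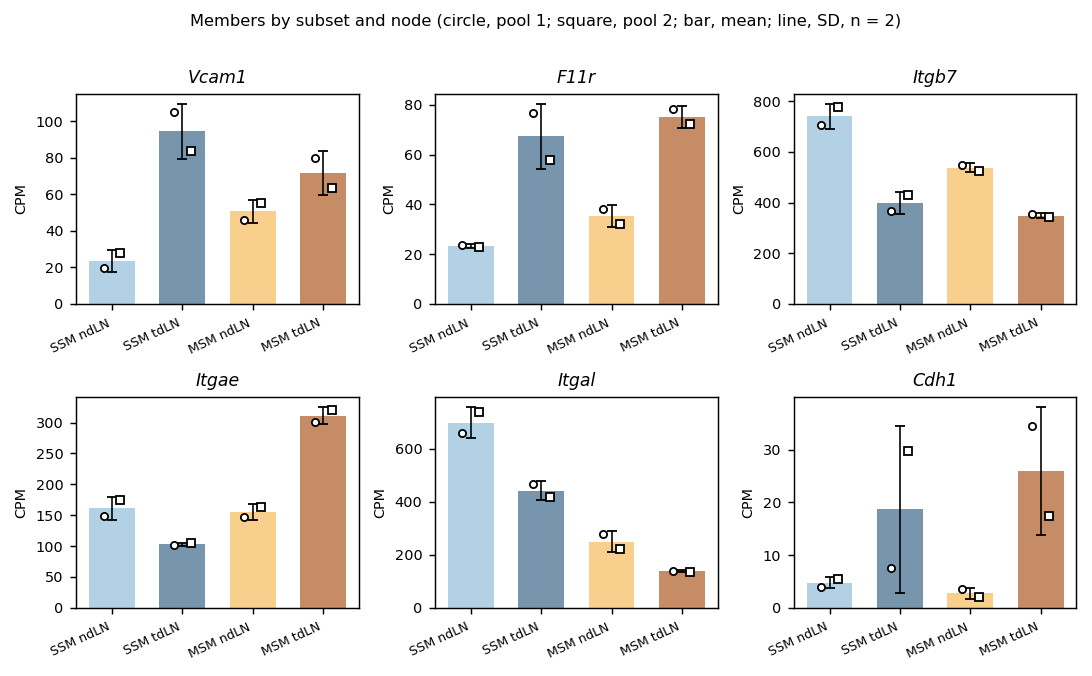
CPM (y axis, from 0) of 6 members in the 4 groups, with a circle for pool 1, a square for pool 2, a bar for the mean and a line for the SD (n = 2). Vcam1 and F11r are higher in tdLN than in ndLN of SSMs and Itgb7 is lower, Itgae is highest in MSM tdLN (301 and 321 CPM), Itgal is lowest there, and the SSM tdLN libraries of Cdh1 lie far apart.

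Genes around the integrins were read from 6 lists with 86 genes, of which 79 were tested. In ndLN 24 were called between SSMs and MSMs (15 higher and 9 lower in SSMs), in tdLN 23 (15 and 8), between nodes in SSMs 6 (4 higher and 2 lower in tdLN), where 12.1%, 8.69% and 3.04% of all genes were called, and 0 between nodes in MSMs or for the interaction. For those last comparisons edgeR gave 24 genes each at an unadjusted p under 0.05, and DESeq2 called 9 and 8, beside 503 and 706 of all genes. The shares of all genes again include genes under the count cut-off and can understate the background. Counts per list, here and below, were not tested against it and are no result about a list. Of 15 tested genes of integrin activation, 5 were called in ndLN and 6 in tdLN. Skap1 and Skap2, related adaptors that link immune receptors to integrins, moved in opposite directions. Skap1 had 248 and 277 CPM in SSM ndLN against 14.7 and 24.3 in MSM ndLN (log2 3.76 ± 0.23, edgeR adjusted p = 4.12e-05), and Skap2 had 114 and 104 against 599 and 494 (-2.32 ± 0.12, edgeR adjusted p = 2.93e-05). Skap1 is best known from T cells, whose markers were higher in SSMs. Rasgrp2, an exchange factor that activates Rap1, was 7.53-fold higher in SSMs in ndLN and 9.04-fold higher in tdLN. In the adhesion complex list, 4 of 18 were called in each node, 1 higher and 3 lower in SSMs. Its related kinases split, with Ptk2b (PYK2) 2.48-fold higher and Ptk2 (FAK) 3.36-fold lower in SSMs in ndLN.

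Matrix ligands gave 7 calls of 22 in ndLN (5 higher and 2 lower in SSMs) and 3 in tdLN, all higher. For this and the next lists, the shares of all genes called were 12.1% in ndLN and 8.69% in tdLN. Thbs1 (thrombospondin 1), a ligand of CD36, CD47 and integrins, was at 2445 and 1713 CPM in SSM ndLN, 4961 and 3250 in SSM tdLN, 165 and 199 in MSM ndLN and 312 and 194 in MSM tdLN, 11.02-fold higher in SSMs in ndLN and 16.3-fold higher in tdLN. Lrrc32 (GARP), which holds latent TGF-beta on the cell surface, was 20.2-fold lower in SSMs in ndLN, and Spp1 (osteopontin), a ligand of alphaV and alpha9 integrins, 5.08-fold lower. Of 15 tested counter-receptors 4 were called in ndLN and 5 in tdLN, all higher in SSMs. Klrg1, an E-cadherin receptor of NK and T cells, was at 53.3 and 48.8 against 1.82 and 1.63 CPM in ndLN, and Thy1, a T cell and stromal ligand of beta2 integrins, at 37.98 and 29.9 against 0.872 and 1.69. Tetraspanins, which organise integrins in the membrane, were called for 4 of 7 genes in ndLN and 5 in tdLN. In ndLN Cd82 was 3.35-fold higher in SSMs, while Cd81 was 5.05-fold lower and Cd9 3.00-fold lower. Of the 3 further integrin subunits 2 were tested, and in each comparison 0 were called by edgeR or DESeq2 and 0 had an unadjusted p under 0.05.

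Between SSMs of the 2 nodes, Skap2 (3.03-fold, edgeR adjusted p = 0.00116), Rap1a (2.13-fold, edgeR adjusted p = 0.00827), the integrin-linked kinase partner Lims1 (2.39-fold, edgeR adjusted p = 0.00506) and Spp1 (3.03-fold, edgeR adjusted p = 0.00871) were higher in tdLN. Npnt (3.82-fold, edgeR adjusted p = 0.0049) and Cd82 (2.62-fold, edgeR adjusted p = 0.00175) were lower. Npnt, the ligand of the Itga8 integrin, was thus lower in tdLN in the subset where it was high.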

How the data were processed

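RNA of sorted SSMs and MSMs was amplified with a SMART-Seq v4 kit, which does not mark strand, and sequenced on 2 lanes. Per the labels and the submitters' processing notes, the authors used Trimmomatic 0.36 and STAR 2.5.3a with a mouse GRCm38 reference; the counting mode is not given in the sources used here. The deposited values are raw counts per gene for 16 samples, 8 libraries on 2 lanes each. Lanes differed by chi-square per degree of freedom of 0.955 to 1.02 within a library, against 29.3 to 53.1 between libraries of a group, and were summed. Rows for 2 added sequences, with 6 counts, were left out.

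From the counts, genes with at least 10 counts in all and counts in at least 2 samples (21085) were tested with edgeR 4.0.16 (quasi-likelihood test, TMM scaling, R 4.3.3) on group plus pool, over all 8 libraries, with Benjamini-Hochberg adjustment. Pools enter as a block because the study's methods state that a pool of mice gave all 4 groups. The labels hold 2 replicate numbers where the methods speak of 4 pooled samples, the number was taken as the pool, and 1 SSM tdLN library without a number was taken as pool 1, so that the pairing is an assumption. Correlations of same-numbered deviations between groups ran from -0.146 to 0.163 over 10000 genes. A call needed an adjusted p under 0.01 together with a mean of more than 100 normalized counts on the scale of 1 lane (4.41 CPM). CPM are counts per 1000000 TMM-scaled library counts, and CPM per kb use GENCODE M21 exon lengths. A floor of 3 counts is 0.0552 to 0.0769 CPM, which covers counting error only. The fit was tested on simulated counts. Alternatives used DESeq2 1.42.0, other filters, scalings and lane choices, and each library left out. All members were described, and the genes of the pathway lists named were up to 3 called genes per list and direction with the largest change. Members, lists and named genes were chosen with earlier results of these data known.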

Additional observations from a re-analysis of the deposited data

How the results depend on the processing

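The log2 fold changes of 85 pairs of a member and a comparison were followed under the alternatives, and 0 of them changed direction. These were the pairs called in the main fit or in at least 1 alternative, so that a reversal was unlikely from the start. Holm adjustment, the threshold of 0.05 and the fit without a count cut-off reuse the main fold changes and cannot reverse them. The other pairs and the genes of the pathway lists were not followed. In ndLN the 15 members called between SSMs and MSMs became 23 with each lane as a sample, 9 with only the groups compared and 1 with Holm adjustment, and 8 to 14 with 1 library left out. An adjusted p under 0.05 called 22 there. In tdLN the 14 members became 23 with each lane as a sample and 1 with Holm adjustment, and 6 to 15 with 1 library left out. Between nodes in SSMs the 3 members became 10 with DESeq2, 18 with each lane as a sample, 0 with only the groups compared, 0 with Holm adjustment and 10 at an adjusted p under 0.05, and 0 to 1 with 1 library left out. Between nodes in MSMs the 0 became 5 with DESeq2, 12 with each lane as a sample and 2 at an adjusted p under 0.05. For the interaction the 0 became 5, 9 and 1 in the same order. Lanes are technical repeats, so that the fit of each lane as a sample understates the spread.

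Without the pool as a replicate block, 17 members were called in ndLN, 14 in tdLN, 3 between nodes in SSMs, and 0 between nodes in MSMs and for the interaction, so that the pairing of pools changed no count by over 1.5 times. Of 64 alpha subunit shares, 29 moved by more than the spread between pools with the longest transcript as gene length, and 20 with only the exon bases of no other gene, an alternative chosen after seeing the data. Members with few counts, such as Itga7 and Itgb6, gave no usable fold change.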
